A study of Mus musculus with 10 samples.

Results

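Messages for the enzymes of glycolysis and for genes induced by low oxygen were followed in renin cells of mouse kidneys after narrowing of the aorta. The set holds 36 genes, taken by symbol from a fixed list of glycolytic enzymes and of regulators and targets of the hypoxia-inducible factors (HIF), out of 32648 gene rows. All 36 were found, and all 36 passed the filter on low counts, which kept 18825 genes. No member passed the test of any comparison, so that every difference given here is a description of these libraries. A p above the threshold does not show that levels were equal.

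Glycolysis splits glucose into pyruvate in the cytosol, which lactate dehydrogenase can convert to lactate. HIF is a transcription factor whose alpha subunit is hydroxylated by prolyl hydroxylases when oxygen is plentiful and is then destroyed. When oxygen is scarce the alpha subunit survives, pairs with ARNT, and raises transcription of glucose transporters, glycolytic enzymes, vascular endothelial growth factor and its own hydroxylases. In the kidney the HIF pathway is best known for control of erythropoietin, and renin cells, which sit in the wall of the arterioles that feed the glomeruli, sense perfusion pressure.

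The coarctation groups are right and left kidneys of 3 C57BL/6 mice in which the aorta was constricted at a point lying between the origins of the renal arteries. The sham groups are right and left kidneys of 2 mice operated on without exposing or constricting the aorta. All 5 animals were adult Ren1c-YFP mice, 8 to 12 weeks old, in which renin regulatory sequence drives a yellow fluorescent reporter, and all were studied 72 h after surgery. From each kidney cortex 1000 living reporter-positive cells were sorted by flow cytometry and made into 1 SMART-Seq v4 library, giving 10 libraries. The gate follows the activity of the reporter, and a library is a pool in which fewer cells of a type cannot be told apart from less RNA per cell. The labels give no pressures and no oxygen measurements for either kidney.

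Depth was 20029817 to 32006229 estimated counts per library, and pairs of libraries correlated at 0.875 to 0.931 in log2 CPM (scaled counts). Both kidneys of coarctation mouse 1 lay away from the rest on principal component 2 (15% of variance), and both kidneys of sham mouse 1 on component 1 (22.7%). Ren1, the check of the sort, had 5451, 11982 and 10835 TPM in right kidneys of coarctation mice 1, 2 and 3, against 29285, 48619.9 and 36877 TPM in their left kidneys, and 21776 and 48591 TPM in right kidneys of sham mice 1 and 2, against 30521 and 43896 TPM in their left kidneys. Markers of other cell types were measured in every library. Over 14 proximal tubule markers the sum was 2144 to 4795 TPM in right and 1557 to 10461 TPM in left coarctation kidneys, and 1178 to 3991 TPM in right and 949 to 5515 TPM in left sham kidneys. None of these 14 markers was at 0 in all libraries.

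The most abundant message of the set was Ldhb, the lactate dehydrogenase subunit typical of oxidative tissues such as heart. Ldhb had 2010.3, 1526 and 1298 TPM in right and 1258, 929 and 1195 TPM in left kidneys of coarctation mice 1, 2 and 3, and 965 and 1195 TPM in right and 1189 and 1143 TPM in left kidneys of sham mice 1 and 2. Higd1a, a small mitochondrial protein that interacts with the respiratory chain, came next. Higd1a had 808, 634 and 488 TPM in right and 986, 737 and 678 TPM in left kidneys of coarctation mice 1, 2 and 3, and 919 and 644 TPM in right and 788 and 689 TPM in left kidneys of sham mice 1 and 2. No group lay apart from the others in TPM. Gapdh, which oxidises glyceraldehyde 3-phosphate, followed. Gapdh had 433, 640.5 and 776 TPM in right and 693, 665 and 654 TPM in left kidneys of coarctation mice 1, 2 and 3, and 739 and 799 TPM in right and 728 and 734 TPM in left kidneys of sham mice 1 and 2. The lowest of these was the right kidney of coarctation mouse 1.

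Aldolase A and triose phosphate isomerase, which make and interconvert the triose phosphates, followed with phosphoglucose isomerase (Gpi1, described with the comparison of kidneys). Aldoa had 379.6, 623 and 607 TPM in right and 387, 437 and 406 TPM in left kidneys of coarctation mice 1, 2 and 3, and 329 and 584 TPM in right and 326 and 609.9 TPM in left kidneys of sham mice 1 and 2. Tpi1 had 156, 282 and 335 TPM in right and 170.5, 187 and 305 TPM in left kidneys of coarctation mice 1, 2 and 3, and 201 and 309 TPM in right and 170.0 and 238 TPM in left kidneys of sham mice 1 and 2. For both genes the libraries of sham mouse 1 were among the lower ones. Eno1 (112 to 227 TPM), Pgk1 (91.8 to 121 TPM), Pkm (41.6 to 116 TPM) and Pgam1 (29.4 to 68.0 TPM), which carry the later steps to pyruvate, were the other enzymes with a mean above 50 TPM. Neighbours in this order overlapped in range over the libraries, and the order rests on means over all 10.

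**Figure D1:**
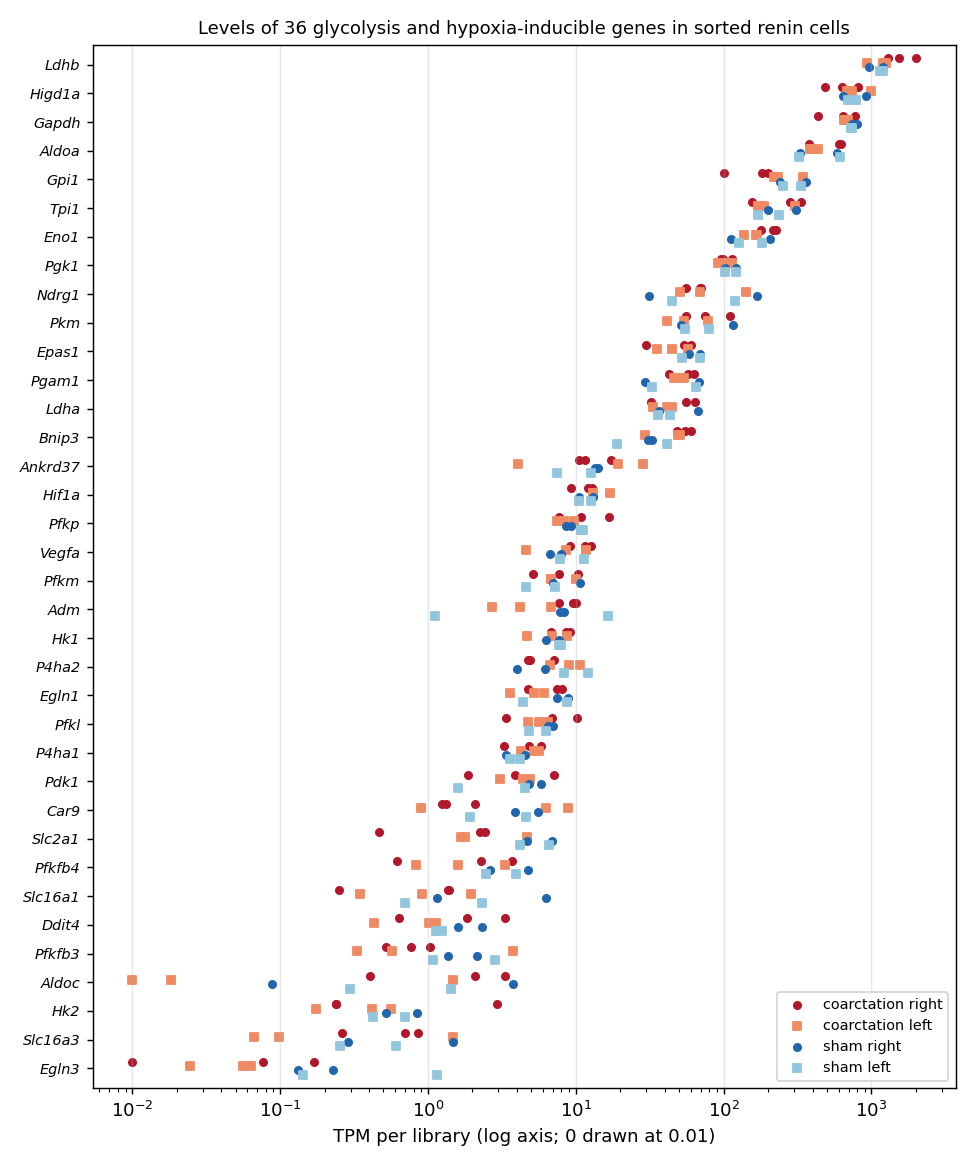
TPM of each of the 36 genes in each library on a log axis, ordered by mean, with circles for right and squares for left kidneys, red for coarctation and blue for sham. Levels run from Ldhb (mean 1271 TPM) down to Egln3 (mean 0.204 TPM), and for most genes the 4 groups overlap.

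Several targets of HIF stood low on this scale and others high. Slc2a1, the glucose transporter GLUT1, was found at 0.464 to 6.95 TPM. The lactate carriers Slc16a1 and Slc16a3 were at 0.251 to 6.33 TPM and 0.0669 to 1.49 TPM. Hk2, the inducible hexokinase, was at 0.174 to 2.93 TPM, below the housekeeping form Hk1 at 4.65 to 9.18 TPM. Egln3, the prolyl hydroxylase most strongly induced by HIF in many cell types, was at 0 to 1.14 TPM and thus the scarcest of the 36. Vegfa was at 4.61 to 12.7 TPM and Adm, the vasodilator peptide adrenomedullin, at 1.11 to 16.5 TPM. Bnip3, a mitophagy receptor (19.0 to 59.7 TPM), and Ndrg1, a stress-response protein (31.4 to 168 TPM), were the HIF targets outside glycolysis with the highest means after Higd1a.

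Lactate dehydrogenase was almost wholly of the B form. Ldhb made 94.6% to 98.4% of the summed TPM of Ldha, Ldhb and Ldhc. Ldha, the A subunit and a classical HIF target, had 32.2, 64.3 and 55.9 TPM in right kidneys of coarctation mice 1, 2 and 3, against 33.4, 41.7 and 44.6 TPM in their left kidneys. Ldha had 36.7 and 67.4 TPM in right kidneys of sham mice 1 and 2, against 36.1 and 43.5 TPM in their left kidneys. The ratio of Ldhb to Ldha was 62.5, 23.7 and 23.2 in right and 37.7, 22.3 and 26.8 in left coarctation kidneys, and 26.3 and 17.7 in right and 33.0 and 26.3 in left sham kidneys. It was highest in the right kidney of coarctation mouse 1. That library also had the least Ren1. It had the highest summed markers of the loop, distal tubule and collecting duct (1229 TPM) and of leukocytes (954 TPM). The part of other cells in this ratio was not tested. The ratio overlapped between right and left coarctation kidneys, while in sham mice the right kidneys lay below the left ones, at the nearest pair by less than the rounding shown.

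HIF binds hypoxia response elements, whose core is ACGTG or GCGTG. The promoters of the 2 lactate dehydrogenase genes are printed because these subunits of 1 enzyme stood far apart in level in every library, together with those of Gpi1 and Car9, the members with the smallest p between coarctation kidneys. Each sequence is a RefSeq window on GRCm38.p6 from 250 bases before to 50 after a listed start site, read 5′ to 3′ on the gene's strand. That site need not be the gene start in GENCODE, from which the gene positions below come. Capitals mark ACGTG or GCGTG on either strand. CACGTG reads ACGTG on both strands and counts as 2 matches.
Ldha: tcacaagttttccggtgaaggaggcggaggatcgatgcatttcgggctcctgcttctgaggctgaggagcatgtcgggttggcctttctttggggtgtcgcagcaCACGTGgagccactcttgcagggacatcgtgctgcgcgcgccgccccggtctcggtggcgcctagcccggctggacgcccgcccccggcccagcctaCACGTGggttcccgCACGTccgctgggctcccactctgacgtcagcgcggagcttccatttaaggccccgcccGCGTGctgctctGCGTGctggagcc
Ldhb: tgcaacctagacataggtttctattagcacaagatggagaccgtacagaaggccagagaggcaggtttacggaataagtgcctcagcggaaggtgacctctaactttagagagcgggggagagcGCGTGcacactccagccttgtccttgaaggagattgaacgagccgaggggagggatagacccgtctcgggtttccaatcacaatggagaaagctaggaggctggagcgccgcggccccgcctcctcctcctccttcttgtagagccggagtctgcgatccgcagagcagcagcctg
Gpi1: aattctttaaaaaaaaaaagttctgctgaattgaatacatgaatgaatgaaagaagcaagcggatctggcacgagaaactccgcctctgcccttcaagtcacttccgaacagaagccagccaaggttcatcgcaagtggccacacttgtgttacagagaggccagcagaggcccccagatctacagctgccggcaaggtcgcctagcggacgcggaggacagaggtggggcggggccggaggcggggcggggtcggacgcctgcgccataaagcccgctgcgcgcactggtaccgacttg
Car9: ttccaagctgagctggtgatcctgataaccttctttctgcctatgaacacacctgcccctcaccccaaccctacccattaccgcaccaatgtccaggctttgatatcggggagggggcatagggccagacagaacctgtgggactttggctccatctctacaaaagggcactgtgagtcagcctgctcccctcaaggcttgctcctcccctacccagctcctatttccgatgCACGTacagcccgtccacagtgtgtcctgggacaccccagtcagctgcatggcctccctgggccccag

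These windows lie at chr7:46845554-46845853, plus strand, for the first of 2 Ldha starts, at chr6:142507908-142508207, minus strand, for Ldhb, at chr7:34230287-34230586, minus strand, for Gpi1, and at chr4:43506776-43507075, plus strand, for Car9. The Ldha window holds 7 matches, 5 of ACGTG and 2 of GCGTG, and the Ldhb window holds 1 of GCGTG. The window of the second Ldha start, not printed, holds 2 of GCGTG and 0 of ACGTG. The Car9 window holds 1 of ACGTG. In the Gpi1 window neither motif is present, which says nothing of sites elsewhere. Over the set, 34 of 36 genes had such a window (Epas1 and Ndrg1 had none), with 48 windows in all. At least 1 match was found in 40 of 48 windows (83.3%), against 14380 of 32851 windows of all genes (43.8%). The set was listed partly for being HIF targets, so its share is not a result of these libraries. Some windows of the same gene overlap, and base composition was not matched. A match is a short stretch of letters and is not evidence of binding.

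Hexokinase had a dominant form as well. Hk1 made 73.0% to 94.6% of hexokinase TPM. The lowest share belonged to the right kidney of coarctation mouse 2, where Hk2 reached 2.93 TPM. Hk2 had 0.238, 2.93 and 0.239 TPM in right and 0.174, 0.416 and 0.562 TPM in left kidneys of coarctation mice 1, 2 and 3, and 0.837 and 0.517 TPM in right and 0.695 and 0.424 TPM in left kidneys of sham mice 1 and 2. Outside that library Hk2 stayed below 1 TPM. The phosphofructokinase subunits Pfkl (3.37 to 10.2 TPM), Pfkm (4.63 to 10.7 TPM) and Pfkp (7.51 to 16.8 TPM) were present side by side, with no form above 50.03% of their sum in a library.

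Among HIF alpha subunits Epas1, which encodes HIF-2 alpha, exceeded Hif1a in every library. Epas1 had 29.8, 54.1 and 59.7 TPM in right and 35.5, 57.0 and 44.5 TPM in left kidneys of coarctation mice 1, 2 and 3, and 58.3 and 68.7 TPM in right and 52.4 and 69.3 TPM in left kidneys of sham mice 1 and 2. Hif1a had 9.31, 12.9 and 12.1 TPM in right and 13.0, 17.1 and 13.1 TPM in left kidneys of coarctation mice 1, 2 and 3, and 10.5 and 13.0 TPM in right and 10.6 and 12.6 TPM in left kidneys of sham mice 1 and 2. The ratio of Epas1 to Hif1a was 3.20, 4.20 and 4.93 in right and 2.73, 3.33 and 3.39 in left coarctation kidneys, and 5.53 and 5.28 in right and 4.95 and 5.49 in left sham kidneys. All 6 coarctation libraries had a lower ratio than all 4 sham libraries, though the nearest pair almost tied (4.93 against 4.95). This ratio was chosen after its values were seen, the kidneys of a mouse are not independent, and it was not tested.

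**Figure D2:**
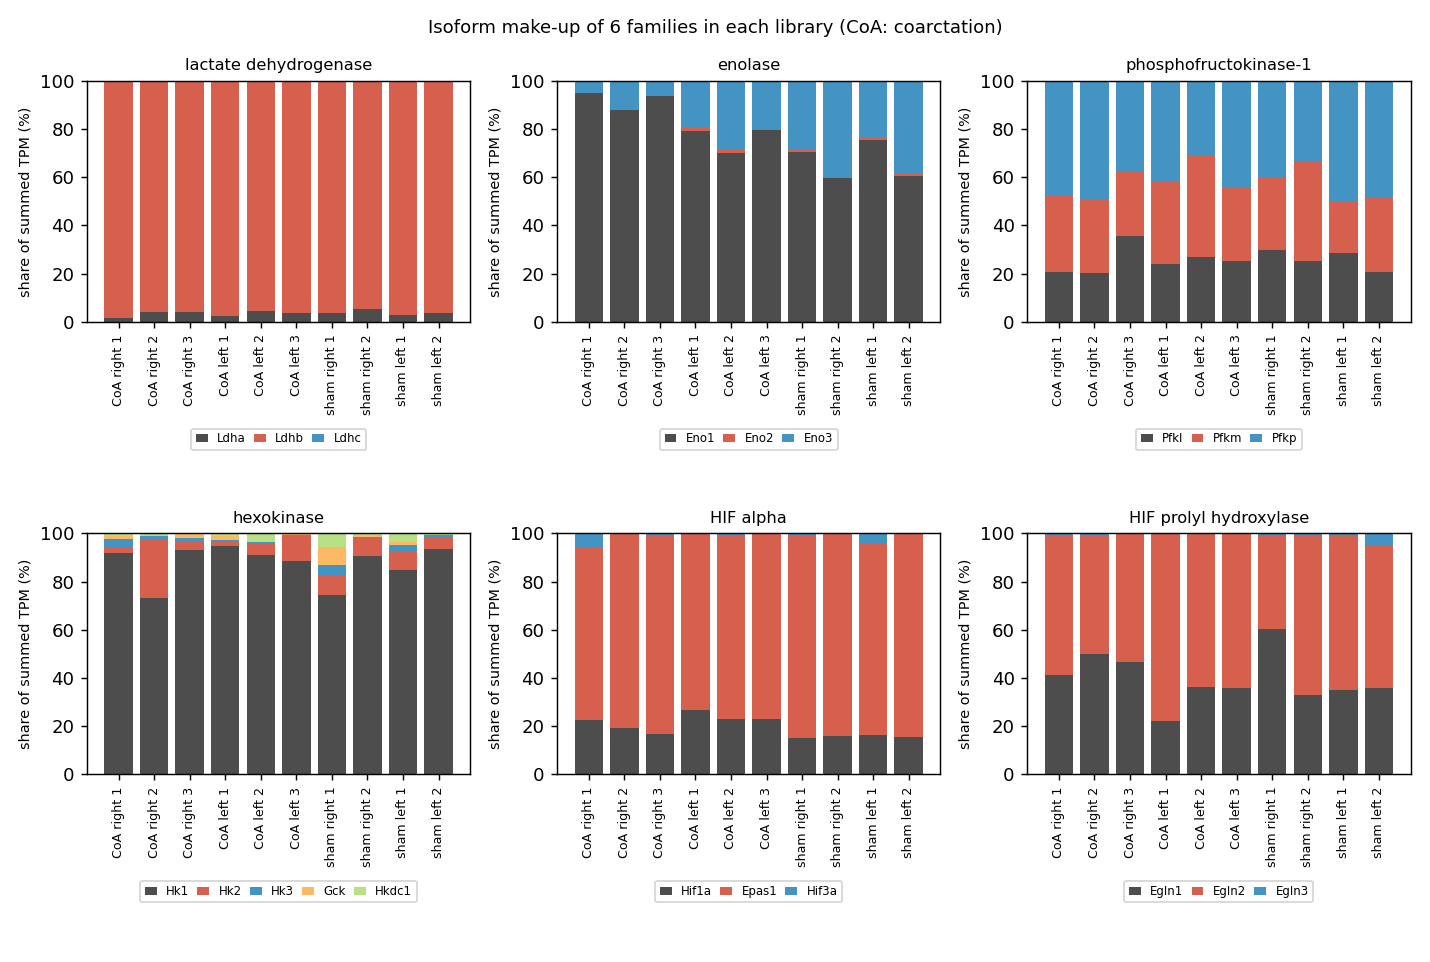
Share of summed TPM (percent, axis from 0 to 100) of each form in 6 families for each library, with coarctation (CoA) right and left kidneys left of sham right and left kidneys. Ldhb fills 94.6% to 98.4% of lactate dehydrogenase, and the share of Eno3 in enolase is lowest in the 3 coarctation right kidneys (4.93% to 11.7%).

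The first comparison, right against left kidneys of coarctation mice, asks which messages differ between kidneys on either side of the constriction. The glycolytic and hypoxia-inducible genes did not share a direction: 18 had a higher and 18 a lower mean in the right kidney, with a median log2 change of -0.03, against 0.02 over all 18825 genes. No member passed edgeR's quasi-likelihood test with Benjamini-Hochberg adjustment, and the share of all tested genes that did was 0%. At an unadjusted p under 0.05 there were 2 members, Gpi1 and Car9, both lower (5.56% of the set, against 2.25% of all genes lower and 4.63% in either direction). DESeq2 called 76 genes and edgeR with mouse as a block called 5 genes, 0.404% and 0.0266% of those tested, none of them a member.

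Gpi1 turns glucose 6-phosphate into fructose 6-phosphate, the step after hexokinase (chr7:34201330-34230336, minus strand, GRCm38, 18 exons). It had 100.4, 182 and 200.1 TPM in right kidneys of coarctation mice 1, 2 and 3, against 234, 345 and 219 TPM in their left kidneys. The right kidney was lower in 3 of 3 mice, and the ranges did not overlap. Within mice 1, 2 and 3 the right minus left difference was -1.32, -1.08 and -0.36 in log2 CPM. Means were 161 ± 53.0 TPM in right and 266 ± 68.3 TPM in left kidneys (SD, n = 3), or 1.86-fold lower on the right in the fitted model (log2 change -0.90, SE 0.31, edgeR adjusted p = 0.992). With mouse as a block the value was similar (log2 change -0.92, SE 0.20, adjusted p = 0.406, edgeR), and the alternatives gave adjusted p-values of 0.188 to 1. Sham mice had 239.8 and 363 TPM in right kidneys, against 251 and 335 TPM in their left kidneys (log2 change 0.02, SE 0.37).

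Car9, the membrane carbonic anhydrase IX and a HIF target (chr4:43506966-43513729, plus strand, 11 exons), had 1.25, 2.09 and 1.32 TPM in right kidneys of coarctation mice 1, 2 and 3, against 8.83, 6.28 and 0.898 TPM in their left kidneys. Mice 1 and 2 were lower on the right, and mouse 3 was not: the within-mouse differences were -2.84, -1.71 and 0.30 in log2 CPM. The fitted right minus left change did not pass (log2 change -1.96, SE 0.82, edgeR adjusted p = 1), and without the left library of coarctation mouse 1 it was -1.17. Car9 had 5.59 and 3.87 TPM in right kidneys of sham mice 1 and 2, against 4.58 and 1.91 TPM in their left kidneys, higher on the right in both.

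P4ha2, a collagen prolyl 4-hydroxylase that HIF induces, had 4.90, 7.17 and 4.77 TPM in right kidneys of coarctation mice 1, 2 and 3, against 6.65, 10.7 and 8.94 TPM in their left kidneys. It was lower on the right in 3 of 3 mice, although the groups overlapped in TPM (log2 change -0.80, SE 0.42, edgeR adjusted p = 1). The same direction was seen in both sham mice, which had 3.97 and 6.15 TPM in right kidneys, against 12.0 and 8.34 TPM in their left kidneys (log2 change -1.01, SE 0.51, edgeR adjusted p = 1). P4ha2 was thus lower in the right kidney of all 5 mice, a pattern not counted over all genes. In log2 CPM, 13.5% of all genes were lower on the right in 3 of 3 coarctation mice, and 24.3% in 2 of 2 sham mice. P4ha1, the partner of P4ha2, was at 3.28 to 5.79 TPM. It was lower on the right in 3 of 3 coarctation mice in log2 CPM, by 0.06 to 0.81, but in 1 of 3 in TPM.

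Hif1a was also lower on the right in 3 of 3 coarctation mice, by 0.58, 0.56 and 0.35 in log2 CPM, with no overlap between the kidneys (log2 change -0.49, SE 0.29, edgeR adjusted p = 1). Higd1a followed in 3 of 3 mice with differences of -0.38, -0.37 and -0.71 (log2 change -0.46, SE 0.30, edgeR adjusted p = 1). With mouse as a block its SE was 0.13, and it did not pass (edgeR adjusted p = 0.597). In normalised log2 CPM 7 members were lower on the right in 3 of 3 mice (Gpi1, Pfkm, Hif1a, Ndrg1, P4ha1, P4ha2 and Higd1a, 19.4% of the set, against 13.5% of all genes), but in TPM Pfkm, Ndrg1 and P4ha1 were higher on the right in 2 of these 3 mice. The members higher in 3 of 3 mice in log2 CPM were Eno1, Pkm, Egln1 and Ddit4 (11.1%, against 14.5% of all genes). In TPM the balance turned round: 4 members were lower in 3 of 3 mice (11.1%, against 8.15% of all genes) and 7 were higher (19.4%, against 20.8% of all genes), with Ldhb, Vegfa and Adm added to the higher ones. Without the left library of coarctation mouse 2 the log2 change of Hif1a was -0.31, and without that of coarctation mouse 1 the log2 change of Higd1a was -0.10. On the log2 CPM scale, groups did not overlap for Gpi1, Hif1a and P4ha2 on the lower side (8.33%, against 5.39% of all genes). The same held for Eno1 on the higher side (2.78%, against 6.11%). In TPM P4ha2 overlapped, while Ldhb and Adm lay wholly on the higher side. Groups that do not overlap in TPM were not counted over all genes, here or in later comparisons.

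**Figure D3:**
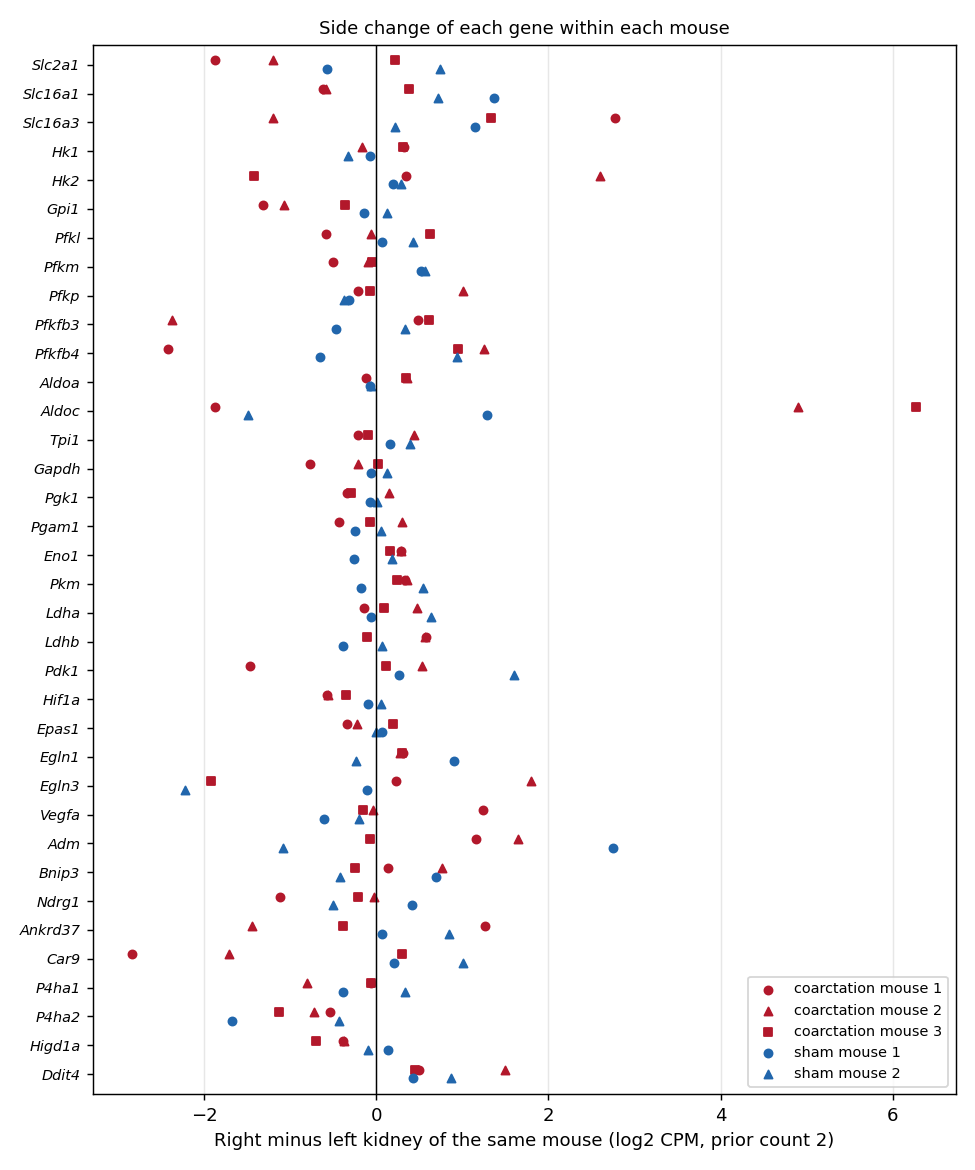
Right minus left difference in log2 CPM within each mouse for the 36 genes, ordered by role, with red symbols for the 3 coarctation mice and blue symbols for the 2 sham mice. Gpi1, Hif1a, P4ha2 and Higd1a have all 3 red symbols left of 0, and for P4ha2 the blue symbols lie there too.

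Grouped by role, transport and export genes (3 members) split into 1 higher and 2 lower on the right. Enzymes of the upper steps to the triose phosphates (11 members) had 7 higher and 4 lower, with a median log2 change of 0.10. Enzymes from Gapdh to lactate dehydrogenase, with pyruvate dehydrogenase kinase Pdk1 (8 members), had 4 of each and a median of 0.04. Of HIF and its hydroxylases (4 members), Egln1 and Egln3 were higher and Hif1a and Epas1 lower. Targets outside glycolysis (10 members) had 4 higher and 6 lower, with a median of -0.36. None of these passed in any role.

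Values of 3 further members with the same sign in 3 of 3 coarctation mice in log2 CPM follow. Ndrg1 had 69.7, 55.8 and 70.3 TPM in right and 141, 51.1 and 69.6 TPM in left kidneys of coarctation mice 1, 2 and 3, and 168 and 31.4 TPM in right and 119 and 44.7 TPM in left kidneys of sham mice 1 and 2. Ndrg1 was highest in coarctation mouse 1 (left) and in both kidneys of sham mouse 1, and the groups overlapped. Egln1 had 4.74, 8.12 and 7.49 TPM in right and 3.58, 6.05 and 5.18 TPM in left kidneys of coarctation mice 1, 2 and 3, and 8.79 and 7.42 TPM in right and 4.42 and 8.74 TPM in left kidneys of sham mice 1 and 2. Egln1 encodes PHD2, the main hydroxylase of HIF-1 alpha, and the difference between coarctation kidneys was smaller than its SE (log2 change 0.29, SE 0.40, edgeR adjusted p = 1). Pfkm had 5.12, 10.4 and 7.68 TPM in right and 6.78, 10.0 and 6.77 TPM in left kidneys of coarctation mice 1, 2 and 3, and 7.05 and 10.7 TPM in right and 4.63 and 7.25 TPM in left kidneys of sham mice 1 and 2. For the muscle-type phosphofructokinase the TPM ranges of all 4 groups overlapped.

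Pdk1, which inhibits pyruvate dehydrogenase, ranged widely within a group. Pdk1 had 1.87, 7.11 and 3.89 TPM in right and 4.88, 4.41 and 3.07 TPM in left kidneys of coarctation mice 1, 2 and 3, and 5.82 and 4.82 TPM in right and 4.56 and 1.59 TPM in left kidneys of sham mice 1 and 2. Pfkfb3, which makes the activator of phosphofructokinase, did so too. Pfkfb3 had 0.519, 0.769 and 1.03 TPM in right and 0.332, 3.76 and 0.567 TPM in left kidneys of coarctation mice 1, 2 and 3, and 2.15 and 1.37 TPM in right and 2.82 and 1.08 TPM in left kidneys of sham mice 1 and 2. The left kidney of coarctation mouse 2 was the highest for Pfkfb3, while the other left coarctation kidneys were the lowest or near it. Pfkfb4, a related enzyme, was at 0.614 to 4.77 TPM, Aldoc, the brain-type aldolase, at 0 to 3.76 TPM, and Ddit4, an inhibitor of mTORC1 signalling, at 0.431 to 3.31 TPM.

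Markers of other cells were read in the same way. Of 14 proximal tubule markers 13 had a lower fitted mean on the right (median log2 change -0.43), but the mice disagreed: 12 and 11 of the 14 were lower in coarctation mice 1 and 3, and 13 were higher in coarctation mouse 2. Podocyte markers were lower on the right in 7 of 8 cases in each of the 3 coarctation mice (median -0.67 in the fit), and summed to 44.7 to 56.3 TPM in right and 58.8 to 83.2 TPM in left kidneys. Red blood cell markers summed to 154, 4063 and 15982 TPM in right kidneys of coarctation mice 1, 2 and 3. Their left kidneys held 2087, 3774 and 4735 TPM. Of 16 markers of the loop, distal tubule and collecting duct 12 had a higher one (median 1.28). Summed loop, distal tubule and collecting duct markers were at 226 to 1229 TPM in right and 138 to 359 TPM in left kidneys. Leukocyte markers, 9 of 13 higher in the fit, summed to 317 to 954 TPM in right and 70.7 to 523 TPM in left kidneys. Coarctation mouse 2 differed, with 6 markers higher and 7 lower on the right, and sums of 432 TPM in the right and 523 TPM in the left kidney. No marker of another cell type passed the main edgeR test, or that test with mouse as a block. Under other settings some had lower adjusted p. The collecting duct gene Atp6v1g3 passed there, with an edgeR adjusted p down to 9.52e-13. Ren1 and the reporter EYFP, which was named after its values were seen, had log2 changes of -2.20 and -2.28, with edgeR adjusted p = 0.165 and 0.921, or 0.00275 and 0.0734 with mouse as a block. The part of any of these in the differences of Gpi1 and the other members was not tested.

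The second comparison, right against left kidneys of the sham mice, gives the side difference without coarctation. Of the 36 members 24 had a higher and 12 a lower mean on the right, with a median log2 change of 0.03 (0.02 over all genes). No member, and 0% of all genes, passed, and 0 members had an unadjusted p under 0.05 (1.94% of all genes). DESeq2 called 28 genes (0.149%), none a member. Members higher in both mice in log2 CPM numbered 10 (27.8%, against 24.5% of all genes) and members lower in both numbered 6 (16.7%, against 24.3%). In TPM they numbered 13 (36.1%, against 26.9%) and 4 (11.1%, against 22.3%). On the log2 CPM scale the kidneys did not overlap for Pfkl, Pdk1, Ankrd37 and Ddit4 on the higher side (11.1%, against 9.74%) and for Hk1, Pfkp, Vegfa and P4ha2 on the lower side (11.1%, against 10.5%). Of these 8, Hk1 and Vegfa overlapped in TPM, where Gapdh lay wholly on the higher side, with no count over all genes on that scale. Hk1 and Aldoa, lower on the right in both sham mice in log2 CPM, were lower in 1 of 2 in TPM.

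Among the 4 sham differences with the smallest p, P4ha2 is given above. Pdk1 was higher on the right (log2 change 0.78, SE 0.60, edgeR adjusted p = 1), and so was Pfkm (log2 change 0.55, SE 0.48, edgeR adjusted p = 1). Egln3 was lower on the right (log2 change -1.89, SE 1.55, edgeR adjusted p = 1), but its estimated counts were small: 7.9 and 18.4 in right and 9.2 and 91.0 in left sham kidneys. Vegfa had 11.6, 12.7 and 9.10 TPM in right and 4.61, 11.8 and 8.59 TPM in left kidneys of coarctation mice 1, 2 and 3, and 7.90 and 6.73 TPM in right and 11.3 and 7.76 TPM in left kidneys of sham mice 1 and 2. This vascular growth factor was lower on the right in both sham mice and overlapped between coarctation kidneys. With 2 mice, each sham value rests on 2 differences.

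**Figure D4:**
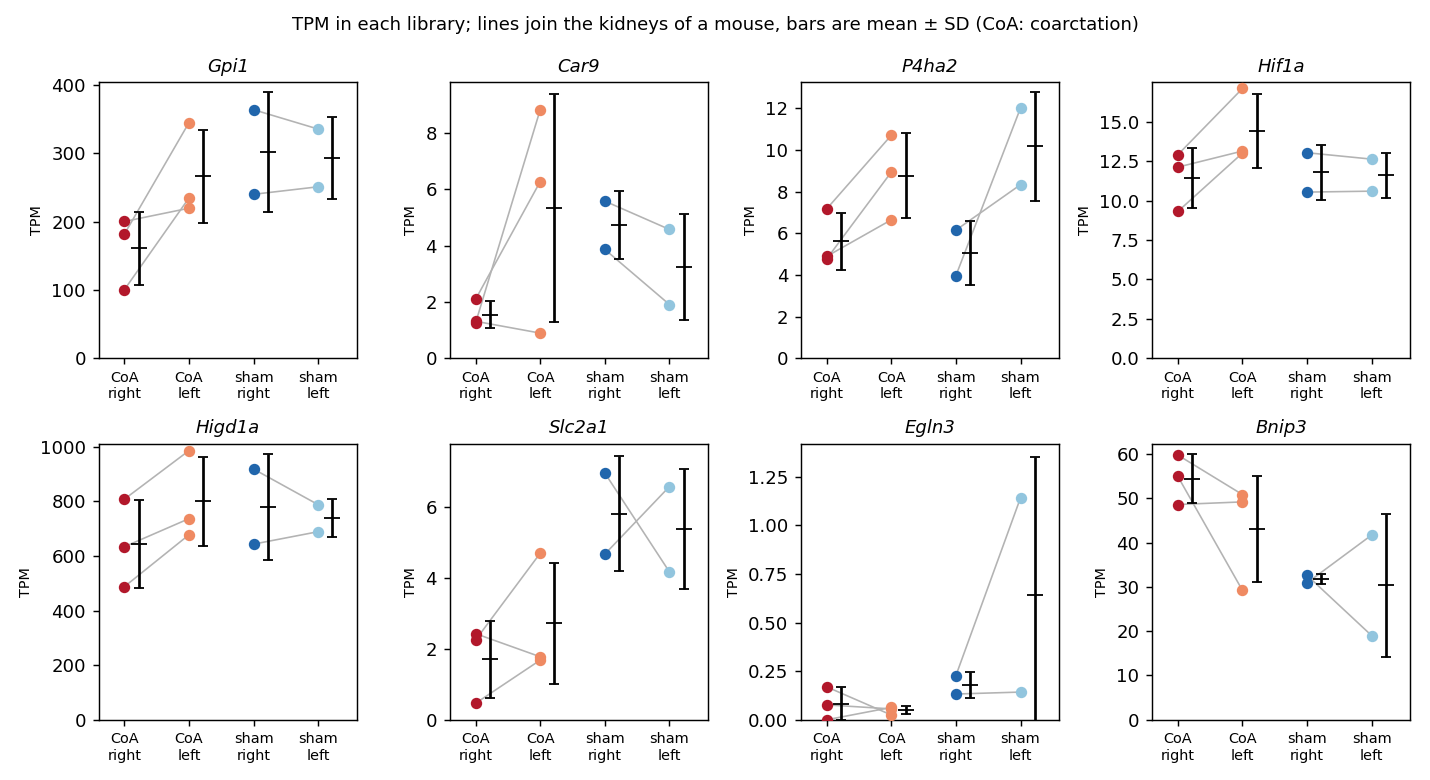
TPM of 8 members in each library for coarctation (CoA) right, coarctation left, sham right and sham left kidneys, with grey lines joining the kidneys of a mouse and black bars for mean ± SD. Gpi1 is lower in the right than in the left kidney of all 3 coarctation mice, and Egln3 reaches 1.14 TPM in 1 left sham kidney alone.

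The third comparison sets the side change of coarctation mice against that of sham mice. In it 15 members had a positive and 21 a negative difference, with a median of -0.15 (0.02 over all genes), and no member passed (0% of all genes, or 0.181% by DESeq2, which called no member). The difference was -2.49 for Car9 (SE 1.27, edgeR adjusted p = 1) and -0.92 for Gpi1 (SE 0.48, edgeR adjusted p = 1). At an unadjusted p under 0.05 there were 0 members (3.05% of all genes), and 2 members, Gpi1 and Higd1a, with mouse as a block (5.56%, against 4.15% of all genes). In log2 CPM Pfkm was the 1 member lower on the right in all 3 coarctation mice and higher in both sham mice (2.78% of the set, against 3.24% of all genes), while in TPM it was higher on the right in 2 of the 3 coarctation mice. The opposite pattern was held by 0 members (3.21% of all genes). For Pfkm the within-mouse differences were -0.50, -0.10 and -0.05 in coarctation mice and 0.52 and 0.57 in sham mice (log2 change -0.75, SE 0.62, edgeR adjusted p = 1). For Pdk1 the difference was -0.95 (SE 0.77). Leaving out 1 library moved each of the differences of Gpi1, Car9, Pfkm and Pdk1. For Gpi1 the difference was -1.28 without the right library of sham mouse 1 and -0.42 without that of sham mouse 2. For Car9 it was -3.15 without the left library of sham mouse 1 and -1.70 without that of coarctation mouse 1. For Pfkm it was -1.21 without the left and -0.25 without the right library of sham mouse 2. For Pdk1 it was -1.80 without the left library of sham mouse 1 and -0.43 without that of sham mouse 2.

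The last 2 comparisons set coarctation against sham within a side. They share samples with the comparisons above, so their values are not independent of them. In right kidneys 21 members had a higher and 15 a lower mean after coarctation, with a median of 0.02 (-0.05 over all genes), and no member passed (0% of all genes, or 0.303% by DESeq2, which called no member). At an unadjusted p under 0.05 were Slc2a1 and Gpi1, both lower (5.56% of the set, against 1.92% of all genes lower and 3.82% in either direction). Markers of other cells differed too, none passing. Podocyte markers were lower after coarctation in 7 of 8 cases (median -1.02), with sums of 44.7 to 56.3 against 70.2 to 98.3 TPM. Leukocyte markers were higher in 10 of 13 cases (median 1.24), and loop, distal tubule and collecting duct markers in 12 of 16 (median 0.79). Their part in the members' differences was not tested.

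Slc2a1, which made the smaller part of glucose transporter TPM in every library, had 4.66 and 6.95 TPM in right kidneys of sham mice 1 and 2. Right kidneys of coarctation mice 1, 2 and 3 had 0.464, 2.24 and 2.43 TPM. The groups did not overlap, and the fitted level was 3.27-fold lower after coarctation (log2 change -1.71, SE 0.70, edgeR adjusted p = 0.995). Without the right library of sham mouse 2 its log2 change was -1.22, and without that of coarctation mouse 1 it was -1.27. The fitted values of the lactate carriers were also lower after coarctation, Slc16a1 by 1.62 and Slc16a3 by 0.31 on the log2 scale, without passing. Both overlapped between the groups, and without the right library of sham mouse 1 the log2 change was -0.10 for Slc16a1 and 1.10 for Slc16a3. Summed over Slc2a1, Slc16a1 and Slc16a3, TPM was 2.68 to 4.08 in right coarctation kidneys and 8.38 to 12.5 in right sham kidneys. The other glucose transporters were not part of this sum. The 12.5 TPM belonged to sham mouse 1, whose right kidney had the most Slc16a1. In left kidneys the sums overlapped, at 2.76 to 6.51 TPM in coarctation and 5.11 to 9.49 TPM in sham mice. Gpi1 had 100.4, 182 and 200.1 TPM in right kidneys of coarctation mice 1, 2 and 3, against 239.8 and 363 TPM in right kidneys of sham mice 1 and 2 (log2 change -0.83, SE 0.34, edgeR adjusted p = 0.995), and without the right library of sham mouse 2 its log2 change was -0.32.

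Bnip3 and Ldhb were higher in right kidneys after coarctation. Bnip3 had 59.7, 54.9 and 48.6 TPM in right kidneys of coarctation mice 1, 2 and 3, against 32.6 and 30.9 TPM in right kidneys of sham mice 1 and 2 (log2 change 0.93, SE 0.44, edgeR adjusted p = 0.995). For Ldhb the same libraries, listed above, gave means of 1611 ± 364 TPM in coarctation and 1080.0 ± 163 TPM in sham right kidneys (SD, n = 3 and n = 2; log2 change 0.73, SE 0.34, edgeR adjusted p = 0.995). Neither passed, and neither overlapped between the groups. Without the right library of coarctation mouse 1 the log2 change of Ldhb was 0.43. In log2 CPM 6 members lay wholly above the sham libraries (Hk1, Pfkp, Eno1, Ldhb, Vegfa and Bnip3, 16.7%, against 7.2% of all genes). Lying wholly below were 4 members (Slc2a1, Gpi1, Pfkfb3 and Car9, 11.1%, against 9.18% of all genes). In TPM Hk1, Pfkp and Eno1 overlapped, and the other 7 did not, again without a count over all genes in TPM.

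In left kidneys 23 members had a higher and 13 a lower mean after coarctation, with a median of 0.11 (-0.02 over all genes), and no member passed (0% of all genes, or 0.207% by DESeq2, which called no member). Egln3 was the 1 member with an unadjusted p under 0.05, on the lower side (2.78%, against 2.91% of all genes lower and 4.75% in either direction). Its estimated counts were 3.9, 2.0 and 4.9 in left coarctation kidneys and 9.2 and 91.0 in left sham kidneys (log2 change -3.44, SE 1.44, edgeR adjusted p = 0.912). The value rests on the left kidney of sham mouse 2, and without it the log2 change was -1.11. Right kidneys held 6.1, 14.8 and 0.0 estimated counts in coarctation and 7.9 and 18.4 in sham mice. Of 14 proximal tubule markers 13 had a higher fitted mean in left kidneys after coarctation (median 0.46). Of 16 loop, distal tubule and collecting duct markers 13 had a lower one (median -1.085). None of these markers passed, and their part in the members' differences was not tested.

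Hif1a had 13.0, 17.1 and 13.1 TPM in left kidneys of coarctation mice 1, 2 and 3, against 10.6 and 12.6 TPM in left kidneys of sham mice 1 and 2, with no overlap (log2 change 0.55, SE 0.32, edgeR adjusted p = 0.912). Bnip3 had 50.8, 29.2 and 49.2 TPM in left kidneys of coarctation mice 1, 2 and 3, against 19.0 and 41.7 TPM in left kidneys of sham mice 1 and 2, which overlapped (log2 change 0.77, SE 0.44, edgeR adjusted p = 0.912). Ankrd37, an ankyrin repeat protein induced by HIF, had 4.09, 28.4 and 19.4 TPM in left kidneys of coarctation mice 1, 2 and 3, against 12.8 and 7.43 TPM in left kidneys of sham mice 1 and 2 (log2 change 0.98, SE 0.68, edgeR adjusted p = 0.912). Its lowest value, in coarctation mouse 1, lay below both sham values. In right kidneys Ankrd37 was at 10.6, 11.5 and 17.3 TPM in coarctation and 14.1 and 13.4 TPM in sham mice. In log2 CPM 5 members lay wholly above the left sham libraries (Pfkl, Pfkm, Hif1a, P4ha1 and Higd1a, 13.9%, against 9.73% of all genes). Only Egln3 among the 36 lay wholly below (2.78%, against 12% of all genes). In TPM Pfkl, Pfkm and Higd1a overlapped, and Pfkp, Gapdh and Ddit4 also lay wholly below. All genes were not counted in this way in TPM.

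**Figure D5:**
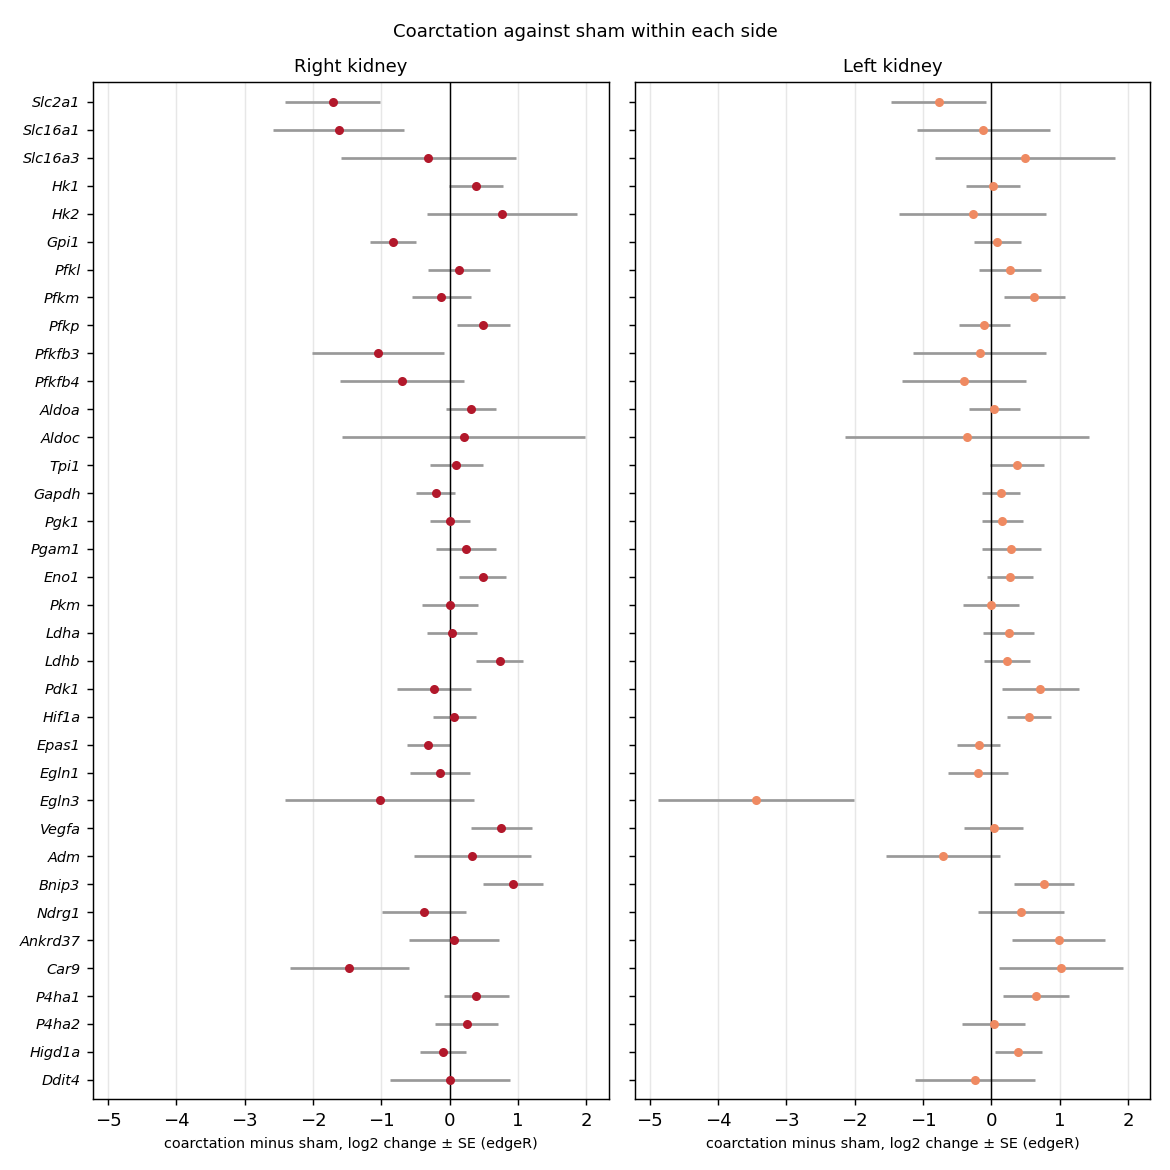
Fitted log2 change ± SE of coarctation minus sham for the 36 genes in right kidneys (left panel) and left kidneys (right panel), on a shared axis. Slc2a1 (-1.71) and Gpi1 (-0.83) lie lowest relative to their SE on the right, and Egln3 (log2 change -3.44, SE 1.44) on the left.

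The rest of the pathway was described by lists of other genes. Of 21 tested genes for other glycolytic isoforms and steps, 7 were higher and 14 lower in right than in left coarctation kidneys (median log2 change -0.29), and none passed. The 2 with the smallest p were Eno3 and Eno2, the muscle and neuronal enolases. Eno3 had 9.32, 30.2 and 14.0 TPM in right kidneys of coarctation mice 1, 2 and 3, against 34.1, 68.7 and 41.3 TPM in their left kidneys. Eno3 had 45.1 and 137 TPM in right kidneys of sham mice 1 and 2, against 39.4 and 115 TPM in their left kidneys. The right coarctation kidneys were the lowest of all libraries, with within-mouse differences of -1.96, -1.34 and -1.79 in log2 CPM, against 0.11 and 0.27 in sham mice.

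Eno3 did not pass between coarctation kidneys (log2 change -1.62, SE 0.54, edgeR adjusted p = 0.992, and log2 change -1.70, SE 0.22, adjusted p = 0.0734 with mouse as a block), nor between right coarctation and right sham kidneys (log2 change -2.34, SE 0.59, edgeR adjusted p = 0.995). The alternatives gave adjusted p-values of 0.0192 to 1 in the first and 0.000147 to 1 in the second, and in both it passed solely without the filter on low counts. Eno2 was lower as well (log2 change -1.86, SE 0.72, edgeR adjusted p = 1). Eno1, the form common to most tissues and a member, made 94.8, 88.0 and 93.8 percent of enolase TPM in right and 79.2, 70.2 and 79.8 percent in left coarctation kidneys. In sham mice its share was 70.5 and 59.6 percent in right and 75.4 and 60.7 percent in left kidneys. Eno1 itself was 112 to 227 TPM (log2 change 0.24, SE 0.30, edgeR adjusted p = 1).

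Of 14 genes of pyruvate import into mitochondria and its use there, 12 were higher and 2 lower in right coarctation kidneys (median 0.06), and none passed. The smallest p belonged to the pyruvate dehydrogenase phosphatases Pdp2 (log2 change -0.77, SE 0.51) and Pdp1 (log2 change 1.21, SE 0.91). Coarctation mouse 2 went the other way for both, by 0.24 and -1.82 in log2 CPM. Of 16 HIF regulators 6 were higher and 10 lower (median -0.13), and none passed. Here Hif3a, a further alpha subunit (log2 change 2.03, SE 1.44), and Egln2, the prolyl hydroxylase PHD1 (log2 change -0.67, SE 0.48), had the smallest p. The mice disagreed for Hif3a, with differences of 6.48, -2.32 and 3.36 in log2 CPM in coarctation mice 1, 2 and 3. Egln2 had 6.65, 7.93 and 8.57 TPM in right kidneys of coarctation mice 1, 2 and 3, against 12.7, 10.7 and 9.16 TPM in their left kidneys, lower in 3 of 3 mice. Of 32 tested genes among 33 other hypoxia-inducible ones 10 were higher and 22 lower (median -0.12), and none passed. Their smallest p belonged to Apln, a vasoactive peptide found at 0 to 0.295 TPM, and to Bhlhe40, a clock-related repressor (log2 change -0.88, SE 0.53).

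Some members share sequence or reads with other genes. Gapdh has 177 near copies in the annotation, 166 of them pseudogenes, and the 162 in the gene table summed to 14.2 to 31.1 TPM, against a mean of 686 TPM for Gapdh. Copies of Ldha, Pkm, Aldoa, Eno1 and Bnip3 averaged under 1 TPM in sum. Genes on the opposite strand overlap some members, and the kit does not mark strand. Ufsp2, which overlaps Ankrd37, was at 30.0 to 63.3 TPM, and Spsb2, which overlaps Tpi1, was at 15.3 to 44.8 TPM. Ankrd37, at 4.09 to 28.4 TPM, was scarcer than this neighbour. Pitrm1, which overlaps Pfkp and shares sequence with it, was at 1.97 to 9.78 TPM, against 7.51 to 16.8 TPM for Pfkp. Senp1, which overlaps Pfkm, was at 3.80 to 7.93 TPM, against 4.63 to 10.7 TPM for Pfkm. The values of Ankrd37, Pfkp and Pfkm are therefore uncertain.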

How the data were processed

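Per the labels' protocols, RNA of 1000 sorted cells per kidney was amplified with SMART-Seq v4. Per the file headers, the authors deposited 3 values per gene and library: TPM, estimated counts, and an average transcript length in bases. These estimated counts were, by a further column of the deposited file, scaled from TPM by transcript length and library size. FastQC and build GRCm38 (mm10) are named in the submitters' processing notes. The aligner, quantifier and annotation have names not given in the sources used here. A bias in the authors' transcript assignment would carry into both units.

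Estimated counts were rounded and fitted in R 4.3.3 with edgeR 4.0.16 (filterByExpr, TMM, quasi-likelihood test, 4 group means over 10 libraries, 6 residual degrees of freedom, common dispersion 0.45). The 5 contrasts were two-sided, and p was adjusted over 18825 genes by the Benjamini-Hochberg method with a threshold of 0.05. This model treats the 10 kidneys of 5 mice as independent. The SE given with a log2 change is its absolute value divided by the square root of the test's F statistic. Per the series' design text the replicates are separate mice. Within-mouse differences use log2 CPM with a prior count of 2. Levels are compared between genes in TPM, which is per length. TMM factors of 0.842 to 1.241 make log2 CPM and TPM differ between libraries, so that small differences can change sign between these scales.

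The mouse number in the titles pairs the kidneys of a mouse. Deviations from the group mean correlated between the kidneys at 0.127, 0.05 and 0.031 in coarctation mice 1, 2 and 3 and at 0.398 in both sham mice, where 2 mice force equal values. Alternatives were the mouse as a replicate block (3 residual degrees of freedom), DESeq2 1.42.0, voom in limma 3.58.1, RLE library sizes, no filter on low counts, the compared libraries alone, and leaving out each library or mouse. DESeq2 gave an adjusted p to 14324 to 18665 genes, depending on the comparison, and its shares are given over all 18825.

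Members and lists were chosen with earlier results of these data known. Values by library were given for the 6 members with the smallest p between coarctation kidneys, the 4 with the smallest p in each other comparison, the 6 most abundant members and 14 canonical regulators and targets. Other lists name their 2 genes with the smallest p between coarctation kidneys. Elob and Eloc were matched by their older symbols Tceb2 and Tceb1. Positions come from GENCODE vM21 (36 of 36 matched) and promoters from RefSeq (34 of 36). Near copies were found with blastn 2.17.0 at 90% identity over at least 300 bases. Reads carry no molecular identifiers, so low counts carry further error beyond counting error.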

Additional observations from a re-analysis of the deposited data

How the results depend on the processing

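No member passed the threshold under any alternative (4211 member values, of which 449 changed sign, smallest adjusted p = 0.188 for Gpi1 between coarctation kidneys). Counts over all genes did depend on the processing. In the order coarctation right against left, sham right against left, their difference, left kidneys and right kidneys, the main test called 0 genes in each, DESeq2 called 76, 28, 34, 39 and 57, and edgeR without the filter on low counts called 112, 19, 63, 67 and 70. The cause was not tested. RLE library sizes, limma-voom and a fit of the compared libraries alone called 0 genes in every comparison they were run on. In TPM in place of log2 CPM, a setting added after the data were seen, 7 members were higher and 4 lower on the right in 3 of 3 coarctation mice, against 4 higher and 7 lower in log2 CPM. In sham mice 13 were higher and 4 lower in both mice in TPM, against 10 and 6 in log2 CPM.

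With mouse as a replicate block, which pairs the kidneys of an animal and can be fitted for the comparisons of sides, 5, 0 and 0 genes passed. The block changed no call of a member. Leaving out a library or a mouse, with or without the block, gave 0 to 7, 0 to 0, 0 to 2, 0 to 0 and 0 to 3 genes in the same order, of which the 7 came with the block and without sham mouse 2. Without the block the most between coarctation kidneys was 4, without coarctation mouse 3. The members' median then ran from -0.134 to 0.148, -0.233 to 0.234, -0.396 to 0.137, 0.042 to 0.27 and -0.126 to 0.339 (0.337 without sham mouse 2). Leaving out a sham library leaves 1 in its group, which is then assumed to vary like the others. The common dispersion of 0.45 and groups of 2 or 3 mice limit which changes can pass, and members below 1 TPM rest on few counts.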

Other observations

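Genes of glucose synthesis and of the side branches of glycolysis were read in the same libraries. All 7 genes of gluconeogenesis, the reverse route run by proximal tubules, had a lower mean in right than in left coarctation kidneys (median log2 change -0.53), and none passed. By mouse, 7, 2 and 5 of the 7 were lower on the right in coarctation mice 1, 2 and 3. G6pc, which releases free glucose, had 4.89, 7.65 and 7.95 TPM in right kidneys of coarctation mice 1, 2 and 3, against 25.1, 6.12 and 7.97 TPM in their left kidneys (log2 change -1.19, SE 0.71, edgeR adjusted p = 1). It was lower on the right in 2 of 3 mice. Pck2, the mitochondrial carboxykinase, had 3.04, 11.7 and 7.73 TPM in right kidneys of coarctation mice 1, 2 and 3, against 6.51, 12.5 and 11.6 TPM in their left kidneys (log2 change -0.66, SE 0.41, edgeR adjusted p = 1), lower in 3 of 3 mice. Summed TPM of the list was 196 to 254 in right and 88.2 to 409 in left coarctation kidneys, and 122 to 262 in right and 135 to 262 in left sham kidneys. The proximal tubule markers, given in the results, had lower fitted means in 13 of 14 cases and were likewise mostly higher on the right in coarctation mouse 2 (13 of 14), and their part was not tested.

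Of 12 genes of the pentose phosphate and serine branches 8 were higher and 4 lower in right coarctation kidneys (median 0.17), and none passed. Pgls, the lactonase of the pentose phosphate route, had 73.8, 87.3 and 159 TPM in right kidneys of coarctation mice 1, 2 and 3, against 129.8, 168 and 111 TPM in their left kidneys (log2 change -0.51, SE 0.46). Rpe, an epimerase of the same route, had 5.57, 7.84 and 10.7 TPM in right kidneys of coarctation mice 1, 2 and 3, against 3.61, 6.44 and 5.58 TPM in their left kidneys (log2 change 0.47, SE 0.49), higher in 3 of 3 mice.

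Among the 36 members' promoter windows 15 of 48 held at least 3 matches to ACGTG or GCGTG (31.2%), against 8.93% of all windows. The promoters of all genes include many without a CpG-rich sequence, and base composition was not matched.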
